A study of Mus musculus with 8 samples.

Results

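Deptor and the transcripts of the machinery it acts on were described in brown adipose tissue, the mouse fat depot that burns lipid to make heat. The 9 genes were taken by name from a table of 22552 genes: Deptor, Mtor, Mlst8, Rptor, Rictor and Akt1s1 for the mTOR complexes, and Tsc1, Tsc2 and Rheb for the switch that controls them. They were selected on 1 measured value: the difference of Deptor between the mutant and the wild-type column, which was among the largest decreases in the table. The partners were added by name to see where they lay. The Deptor difference is therefore a description of how the genes were picked, and the other 8 values come from the same contrast and are descriptions too.

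The mice were 2 months old, of a mixed strain given as 129SV::FVB/N::C57BL/6, and either wild type (mmu-mir-193b +/+, WT) or homozygous for loss of the microRNA gene (mmu-mir-193b -/-, Null). The series title adds miR-365-1, the neighbouring microRNA, to what the Null mice lack. The allele came from a floxed line crossed with MMTV-Cre, a transgene driven by a mouse mammary tumour virus promoter, and Cre was bred out of the offspring. No fat-specific driver was described in the labels. The sex of the mice was not given in the sources used here. For mRNA, 3 WT and 3 Null libraries were described, and for microRNA 1 library of each genotype.

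The deposited mRNA values were FPKM, counts of fragments divided by the length of the transcript and the size of the library, with 1 combined value per genotype, named here as the WT pool and Null pool. No spread between mice can be computed from them, so every difference below is a value without a replicate check or test, and the depth behind it is unknown. Differences are log2((Null + 1)/(WT + 1)) of FPKM, on a scale that understates the change of low genes. The median was 0.01 over the genes measured, which are the 11597 whose 2 values averaged 1 FPKM or more. All 9 genes were above that limit. In bulk tissue, fewer cells of a type and less RNA per cell cannot be told apart.

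mTOR is a large protein kinase that couples nutrients, insulin and energy to growth. It works in 2 complexes: mTORC1, built on Raptor (Rptor), drives protein and lipid synthesis and restrains autophagy, and mTORC2, built on Rictor, activates Akt. Both contain mLST8 and can bind DEPTOR, an inhibitor of the kinase, while PRAS40 (Akt1s1) restrains mTORC1 alone. The TSC1-TSC2 complex keeps the small GTPase Rheb inactive, and active Rheb switches mTORC1 on. In fat, mTORC1 promotes adipocyte formation and lipid storage, and DEPTOR has been described as a promoter of adipogenesis.

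The microRNA miR-193b-3p, its relative miR-193a-3p and miR-365-3p are shown here, with the seed, bases 2 to 8, in capitals. The sequences are the mature entries of RefSeq on GRCm38.p6. The first pair share the seed ACUGGCC, although only miR-193b-3p comes from the deleted gene, and miR-365-3p is made by a deleted and by a remaining copy.
miR-193b-3p: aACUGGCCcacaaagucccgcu
miR-193a-3p: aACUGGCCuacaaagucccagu
miR-365-3p: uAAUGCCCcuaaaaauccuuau
The WT library held 3705 RPM of miR-193b-3p and the Null library 11.5 RPM. For miR-193a-3p the values were 3857 and 4067 RPM, and for miR-365-3p 1442 and 798 RPM. The strands miR-193b-5p and miR-365-1-5p were at 37.9 and 11.8 RPM in the WT library. Each was at 0.08 RPM in the Null library. RPM is the authors' heading for reads scaled per library. The WT and Null labels thus matched the loss of miR-193b, and the same seed was abundant in both libraries on miR-193a-3p.

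Deptor, the inhibitor, stood furthest from the other genes. Its level was 62.2 FPKM in the WT pool and 16.1 FPKM in the Null pool, 25.9% of WT, with a log2 ratio of -1.89. In the order of ratios it was number 54 from the lowest among the genes measured, between Pisd-ps1 (-1.91) and the myosin gene Myh2 (-1.86). Among the 1813 genes whose WT level lay within 2-fold of its own, 2.37% were lower by 2-fold or more and Deptor was number 12.

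Deptor was the most abundant of the 9 transcripts per length in the WT pool and number 4 in the Null pool. It made up 24.7% of their summed FPKM in WT and 8.14% in Null. The sum was 252 in WT and 198 FPKM in Null, a net of lower and higher genes, in which Deptor decreased by 46.1 FPKM. The other 8 together were at 190 in WT and 182 FPKM in Null, and within that sum Rheb alone went from 60.9 to 79.3 FPKM.

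**Figure D1:**
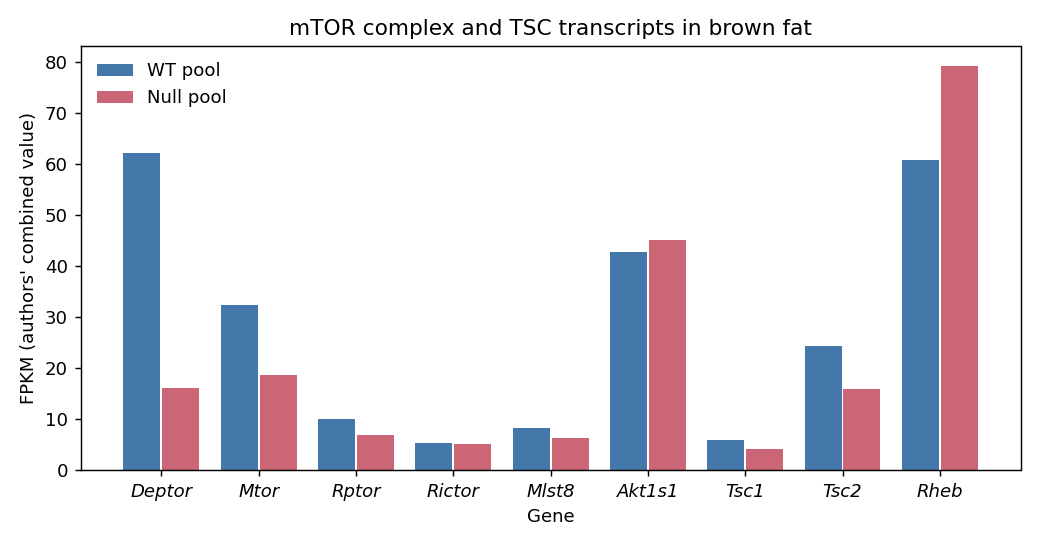
Bars give the level of each transcript (FPKM, vertical axis, from 0) in the WT pool and the Null pool, 1 combined value per genotype with no error available. Deptor is the tallest WT bar at 62.2 FPKM and is at 16.1 FPKM in Null, while Rheb is the tallest Null bar at 79.3 FPKM.

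None of the 8 partners differed by 2-fold or more in either direction, against 1 of 9 with Deptor included. Of all genes measured, 3.82% did so, 1.65% lower and 2.17% higher. By 1.5-fold or more, 1 partner was lower, Mtor, and 0 were higher, against 6.75% and 7.87% of all genes. With the columns scaled to the same sum, 4 partners were lower by that margin: Mtor (-0.97), Tsc2 (-0.78), Rptor (-0.67) and Tsc1 (-0.62), where 14.0% of all genes were. By sign, 6 partners were lower and 2 higher as deposited, with a median log2 ratio of -0.39. Of all genes as deposited, 49.4% were lower and 50.6% higher by any amount. With the columns scaled to the same sum, 7 partners were lower and 1 higher. That scaling also moved the median of all genes to -0.18, so these counts cannot be read against 49.4%. With quantile normalization 5 partners were lower and 3 higher, and the median of all genes was -0.0021.

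**Figure D2:**
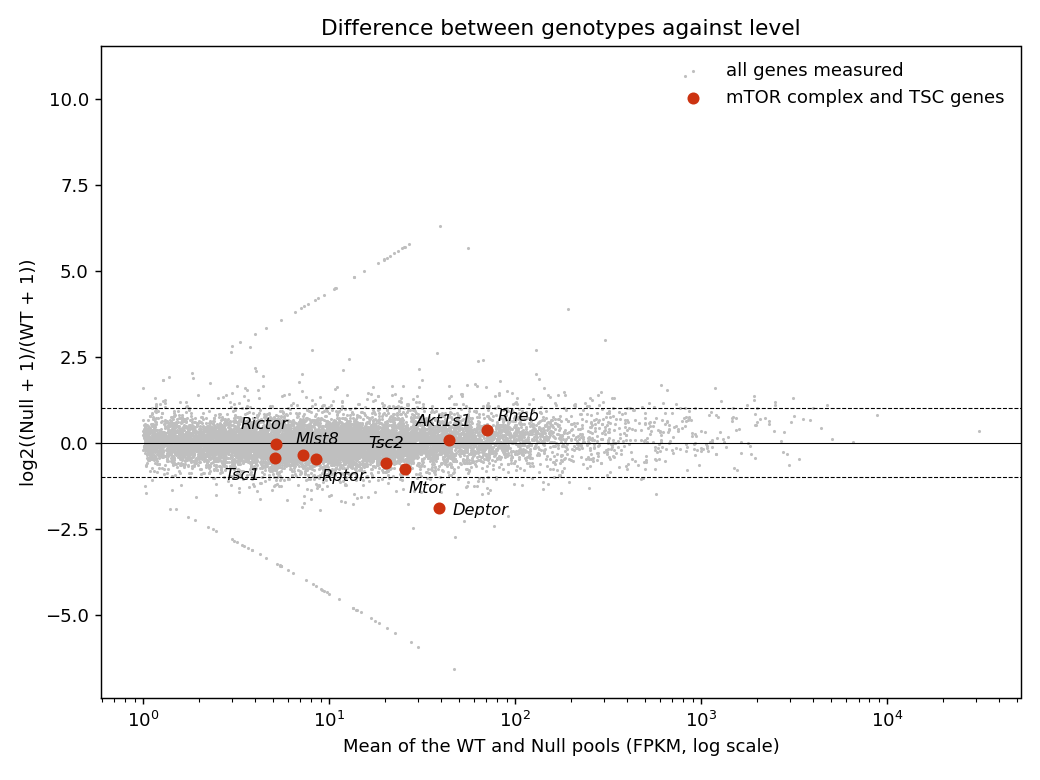
Each grey point is a gene measured, with its mean level in the 2 pools (FPKM, log scale) on the horizontal axis and its log2 ratio of Null to WT on the vertical axis, and dashed lines mark 2-fold. Red points are the 9 named genes: Deptor lies below the lower line at -1.89, and the other 8 lie between the lines, from -0.76 for Mtor to 0.37 for Rheb.

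Mtor and Mlst8, the catalytic core, both had ratios below 0, neither past 2-fold. Mtor, the kinase itself, was at 32.5 in WT and 18.7 FPKM in Null, which is a log2 ratio of -0.76, the lowest of the partners and number 388 from the lowest of all genes measured. Mlst8, which encodes the small subunit bound to the kinase domain in both complexes, was at 8.20 and 6.23 FPKM (-0.35), and 17.0% of all genes measured had a lower ratio. Because Deptor differed more than Mtor, the level of Deptor relative to Mtor went from 1.92 in WT to 0.861 in Null: the inhibitor's transcript exceeded that of its target in WT and was below it in Null.

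The scaffolds that define the complexes had unlike ratios. Rptor, the subunit that recruits mTORC1 substrates, was at 10.1 in WT and 6.93 FPKM in Null (-0.48). Rictor, its counterpart in mTORC2, was at 5.26 and 5.12 FPKM (-0.03), as deposited the ratio nearest to 0 among the 9 genes. Its sign turned with quantile normalization, to 0.01, and with the columns scaled to the same sum it was -0.21, further from 0 than Akt1s1 and Rheb. The level of Rptor over that of Rictor was accordingly 1.91 in WT and 1.35 in Null. Akt1s1, the second inhibitor in the set, was at 42.7 and 45.2 FPKM (0.08, and -0.13 when the columns were scaled to the same sum). The decrease seen for Deptor was thus not accompanied by one of similar size in the transcript of PRAS40, and the Akt1s1 level relative to Mtor was 1.32 in WT and 2.42 in Null.

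Upstream, the TSC genes and Rheb lay on opposite sides of 0. Tsc1, the stabilising subunit of the complex, was at 6.00 in WT and 4.16 FPKM in Null (-0.44). Tsc2, which carries the activity that turns Rheb off, was at 24.4 and 16.0 FPKM (-0.58). The ratio of Tsc1 to Tsc2 levels was 0.246 in WT and 0.260 in Null, so this pair kept nearly the same proportion. Rheb was the highest of the 9 in its ratio, at 60.9 and 79.3 FPKM (0.37, and 0.16 with the columns scaled to the same sum). The level of Rheb over Tsc2 was 2.50 in WT and 4.95 in Null.

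The promoters of the partners with the lowest and the highest ratio, Mtor and Rheb, are shown to set these genes side by side. They are the 250 bases before the RefSeq start on GRCm38.p6, for Mtor chr4:148448332-148448581 on the plus strand and for Rheb chr5:24842362-24842611 on the minus strand. Capitals mark exact matches, on either strand, to 4 motifs: the letters CCAAT, the GC box with the letters GGGCGG, the E-box with the letters CACGTG, and the TATA box with the letters TATAAA. No matches overlap in these 2 windows.
Mtor: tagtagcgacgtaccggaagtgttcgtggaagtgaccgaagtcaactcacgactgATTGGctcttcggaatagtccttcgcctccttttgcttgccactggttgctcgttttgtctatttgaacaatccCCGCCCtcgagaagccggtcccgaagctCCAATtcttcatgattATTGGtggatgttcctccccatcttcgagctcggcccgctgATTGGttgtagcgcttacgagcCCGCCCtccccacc
Rheb: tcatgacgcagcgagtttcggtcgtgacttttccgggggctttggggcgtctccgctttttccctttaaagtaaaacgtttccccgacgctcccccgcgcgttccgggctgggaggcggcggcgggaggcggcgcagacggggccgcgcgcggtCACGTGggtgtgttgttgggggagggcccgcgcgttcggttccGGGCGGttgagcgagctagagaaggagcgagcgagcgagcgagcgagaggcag
The Mtor window held 4 CCAAT matches, a count reached by 0.840% of the 32851 promoters of the same length, and 2 GC boxes, a count reached by 16.7% of them. The Rheb window held 1 E-box, a match present in 6.02% of promoters, and 1 GC box, present in 32.7%. Promoter sequences were matched for 8 of the 9 genes, all but Deptor. A CCAAT match was found in 2 of the 8 (Mtor and Rictor), where 33.8% of all promoters held at least 1. A GC box was found in 4 of the 8, against the 32.7% above, an E-box in 1, against 6.02%, and a TATA box in 0, against 12.4%. These matches describe the letters only.

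The wider pathway was described with 71 genes in 5 lists, all of them measured. Of these, 2 were lower by 2-fold or more (2.82%) and 0 higher, and 7 were lower by 1.5-fold or more (9.86%) and 1 higher. The median log2 ratio of the 71 was -0.07, against 0.01 for all genes measured. The background shares were 1.65% lower and 2.17% higher at 2-fold, and 6.75% lower and 7.87% higher at 1.5-fold.

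Further subunits of the complexes had a median of -0.03 over 7 genes. Of these, 0 were past 1.5-fold, against 6.75% lower and 7.87% higher among all genes. Mapkap1, which encodes the mTORC2 subunit SIN1 and was the most abundant of them, was at 23.3 in WT and 22.4 FPKM in Null (-0.05). Tti1, a chaperone cofactor that assembles mTOR and related kinases, was the lowest at 7.27 and 4.56 FPKM (-0.57), and its partner Telo2 was next at 4.39 and 4.06 FPKM (-0.09). The highest were Rhebl1, a relative of Rheb (1.43 and 2.28 FPKM, 0.44), and Prr5, an mTORC2 subunit (4.19 and 5.78 FPKM, 0.39).

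Amino acid sensing genes, which bring mTORC1 to the lysosome, had a median of 0.02 over 29 genes, with 13 lower and 16 higher. The 5 Lamtor genes, which encode the Ragulator scaffold on the lysosome, were picked out after their values were seen. Their ratios were above 0, from 0.26 to 0.46, none past 1.5-fold, where 50.6% of all genes were higher by any amount. Their summed level was 384 in WT and 501 FPKM in Null. Lamtor2 was the most abundant at 174 and 226 FPKM (0.37), and Lamtor4 (0.46) and Lamtor5 (0.43) had the highest ratios of the list. With the columns scaled to the same sum, which moved the median of all genes to -0.18, the 5 ranged from 0.06 to 0.25. The lowest were Castor2, a relative of an arginine sensor, at 5.15 and 2.31 FPKM (-0.90), and Depdc5, a subunit of the GATOR1 complex that restrains mTORC1, at 4.92 and 2.71 FPKM (-0.67). The other GATOR1 subunits did not share that value: Nprl3 was at -0.30 and Nprl2 at 0.10.

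Among kinases and regulators upstream, 9 of 13 were lower, where 49.4% of all genes were, and the median was -0.16. Pdpk1, which phosphorylates Akt, was the lowest at 13.1 in WT and 8.27 FPKM in Null (-0.61). Akt1 was at 33.1 and 31.4 FPKM (-0.08) and Akt2 at 87.5 and 66.4 FPKM (-0.39). Of the 6 subunits of AMPK, the energy sensor that opposes mTORC1, 4 were lower and 2 higher, with a median of -0.31. The regulatory subunit Prkab2 was the lowest of them at 5.94 and 3.92 FPKM (-0.50), followed by Prkab1 (-0.46), Prkaa2 (-0.46) and Prkaa1 (-0.16). On the other side, Prkag2 was the only gene of the list higher by 1.5-fold or more at 29.7 and 46.8 FPKM (0.64). Prkag1 was at 62.0 and 67.2 FPKM (0.11). Stk11, the kinase that activates AMPK and the most abundant of the list, was at 88.5 and 92.7 FPKM (0.07).

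Both pathway genes past 2-fold were targets of mTORC1. Eif4ebp2, a repressor of translation that mTORC1 inactivates, was at 58.7 in WT and 21.1 FPKM in Null, which is a log2 ratio of -1.44. Its relatives differed less: Eif4ebp1, the most abundant gene of the list, was at 288 and 273 FPKM (-0.07) and Eif4ebp3 at 9.61 and 9.56 FPKM (-0.01). Lpin1, a phosphatidate phosphatase of triglyceride synthesis that mTORC1 phosphorylates, was at 166 and 81.4 FPKM (-1.02), just past 2-fold. The S6 kinases had ratios above 0 as deposited, with Rps6kb1 at 16.2 and 16.6 FPKM (0.04) and Rps6kb2 at 16.3 and 18.6 FPKM (0.19). With the columns scaled to the same sum these became -0.17 and -0.017. Over the 16 genes of the list, not all of them direct targets of mTORC1, 11 were lower, where 49.4% of all genes were. Their median was -0.18. The highest were Rps6, at 2.96 and 3.92 FPKM (0.31), and Pdcd4, an inhibitor of translation acted on by S6 kinase, at 23.8 and 28.4 FPKM (0.24). Rps6 is uncertain, because ribosomal protein genes share their sequence with processed copies.

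Genes whose products set the stability of the DEPTOR protein were also listed. The list covers parts of the ubiquitin ligase that marks it for degradation, a casein kinase, and a deubiquitinase that protects it. None of the 6 passed 1.5-fold, and the median was -0.12. Of all genes, 6.75% were lower and 7.87% higher by that margin. Fbxw11, an F-box subunit, was at 19.7 and 15.1 FPKM (-0.37) and Cul1 at 39.8 and 36.4 FPKM (-0.12). Skp1a was at 150 and 200.3 FPKM (0.42) and the deubiquitinase Otub1 at 22.2 and 22.6 FPKM (0.02).

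**Figure D3:**
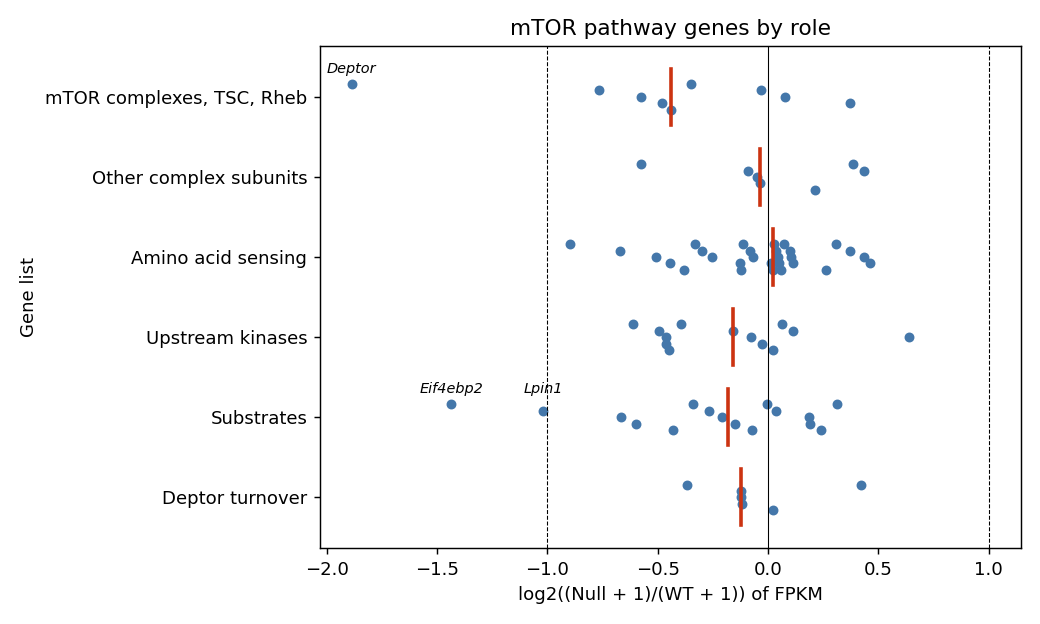
Each point is 1 gene, placed by its log2 ratio of Null to WT (horizontal axis) in its list (vertical axis), with red bars at list medians and dashed lines at 2-fold. Deptor (-1.89), Eif4ebp2 (-1.44) and Lpin1 (-1.02) are the genes beyond the lower line, and no gene lies beyond the upper line.

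The genes most like Deptor in this table were those with a WT level within 2-fold of its own and the closest log2 ratio. With 1 value per genotype this likeness rests on 2 numbers per gene. They were Gm5506, by RefSeq an older name of the enolase gene Eno1b (41.3 in WT and 11.4 FPKM in Null, -1.77), the fatty acid elongase Elovl3 (88.3 and 17.5 FPKM, -2.27), the acyltransferase Gpam, which starts triglyceride assembly (98.5 and 34.2 FPKM, -1.50), Csrp3, a muscle LIM protein (46.2 and 16.4 FPKM, -1.44), and Eif4ebp2.

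The microRNA libraries gave a readout that played no part in choosing the genes. The miR-99 and miR-100 family is known for pairing with Mtor and Rptor mRNAs, and its 3 members share the seed ACCCGUA, shown in capitals.
miR-99a-5p: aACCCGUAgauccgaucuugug
miR-99b-5p: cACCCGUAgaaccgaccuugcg
miR-100-5p: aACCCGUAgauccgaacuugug
In the WT and the Null library miR-99b-5p was at 13520 and 13985 RPM, a ratio of 1.03. miR-100-5p was at 6973 and 6183 RPM (0.887) and miR-99a-5p at 1850 and 2145 RPM (1.16). Summed, they came to 22343 and 22313 RPM, and the ratio of these sums was 0.999 as deposited. The median log2 ratio over the 323 microRNAs that averaged 10 RPM or more was 0.18, and relative to it miR-99b-5p was at -0.13, miR-100-5p at -0.35 and miR-99a-5p at 0.04. Other microRNAs reported to act on this pathway also had ratios near 1: miR-101a-3p was at 6414 and 5409 RPM (0.843), miR-199a-3p at 3590 and 3472 RPM (0.967) and miR-155-5p at 75.0 and 78.8 RPM (1.05). With 1 library per genotype these ratios have no replicate check, and by comparison 14.6% of those 323 differed by 1.5-fold or more.

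Marker lists of the cells in the tissue give the setting of these values. All 10 brown fat markers were detected in both pools. In Null 6 were lower and 4 higher, and the median was -0.14. Ucp1, which defines the tissue, was at 3016 in WT and 2487 FPKM in Null. The lowest ratios were those of Elovl3 (-2.27) and of Dio2, which activates thyroid hormone (18.6 and 9.05 FPKM, -0.97). The highest were those of the respiratory subunits Cox7a1 (2634 and 5343 FPKM, 1.02) and Cox8b (6407 and 11163 FPKM, 0.80). Most skeletal muscle markers moved in the same direction as Deptor, with 14 of 16 lower in Null. The sum of all 16 was 3976 in WT and 2815 FPKM in Null, and none was listed at 0. Their median log2 ratio was -0.89, 6 of the 16 were lower by 2-fold or more against 1.65% of all genes, and 10 by 1.5-fold or more against 6.75%. The lowest were the myosin genes Myh2 (11.8 and 2.53 FPKM, -1.86), Myh1 (21.4 and 5.49 FPKM, -1.79) and Myh7 (18.3 and 4.94 FPKM, -1.70), close to Deptor at -1.89. The more abundant Tnni2 was at 655 and 472 FPKM (-0.47) and Tnnt3 at 596 and 418 FPKM (-0.51). Myl1, with a log2 ratio of 0.12, went the other way from a WT level of 179 FPKM. So did Mylpf, with a log2 ratio of 0.09 and a WT level of 481 FPKM. Of 8 macrophage markers 7 were higher, 2 of them by 2-fold or more, with a median of 0.52. Of all genes, 49.4% were lower and 50.6% higher by any amount, and 2.17% were higher by 2-fold or more. The macrophage markers ranged from -0.01 for Csf1r to 1.04 for Aif1. The sum of these 8 was 99.7 in WT and 152 FPKM in Null, and none was listed at 0. Lyz2 was at 55.9 and 73.9 FPKM and Tyrobp at 18.0 and 32.8 FPKM. Of 8 general fat cell markers 6 were higher and 2 lower, with Fabp4 at 27295 and 34679 FPKM and Cfd at 1334 and 2672 FPKM. The median of these 8 was 0.27, and Cfd had the highest log2 ratio, 1.00. The lower markers were Plin1, with a log2 ratio of -0.55, and Lep, with -0.59. The part of muscle or immune cells in the values of Deptor and its partners was not tested.

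Lists of genes for large and for small proteins were chosen after seeing the data. The other 5 kinases and kinase relatives of the mTOR family, Atm, Atr, Prkdc, Smg1 and Trrap, all large proteins, had log2 ratios from -0.52 for Trrap to -0.0035 for Atr and a median of -0.18, so each was nearer to 0 than Mtor at -0.76. Ribosomal protein genes, which are small, were higher in 61 of 66 measured cases, with a median of 0.88. Of all genes, 50.6% were higher by any amount. The values of ribosomal protein genes are uncertain for the reason given for Rps6. Within the 9 genes, the small Rheb and Akt1s1 were higher and the large Mtor, Rptor, Tsc1 and Tsc2 lower, but the small Mlst8 was at -0.35 and the large Rictor at -0.03. Transcript lengths were not used here, and the part of size in these values was not tested.

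The choice of scale moved the ratios less than the gap between Deptor and its partners. Deptor ranged from -2.09 to -1.89 over the settings tried and Mtor from -0.97 to -0.76. The most negative values for both came from scaling the columns to the same sum, where the median of all genes was -0.18.

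**Figure D4:**
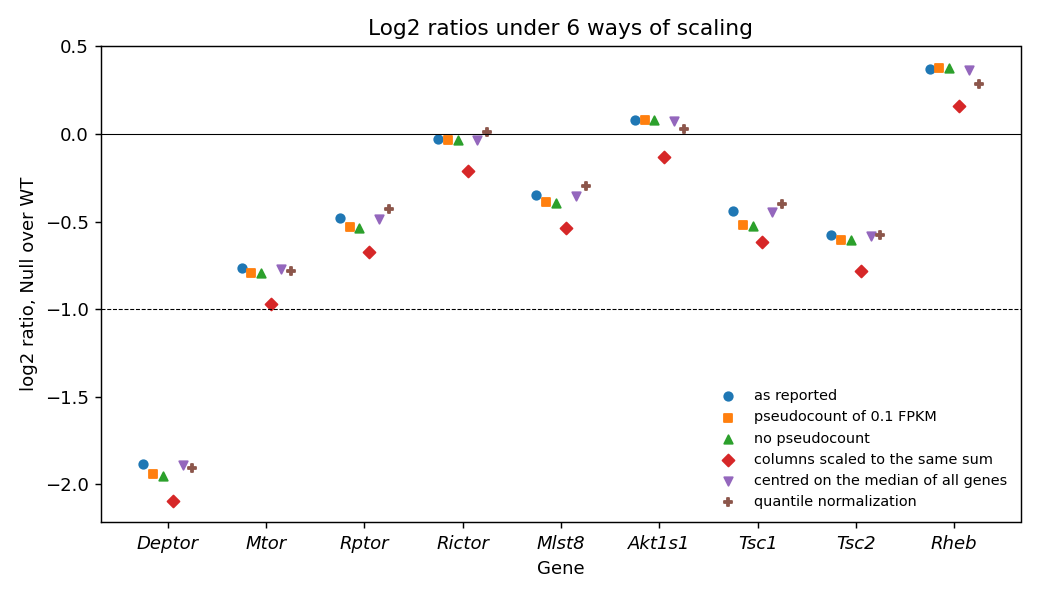
Log2 ratio of Null to WT (vertical axis) for each of the 9 genes (horizontal axis) as reported and under 5 other pseudocounts, scalings or centrings. Deptor lies between -2.09 and -1.89 under all 6, below the dashed 2-fold line, and no partner crosses that line, the nearest being Mtor at -0.97.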

How the data were processed

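The labels describe 8 samples of brown adipose tissue, grouped by the genotype they give: 3 WT and 3 Null mRNA libraries prepared with a TruSeq kit after poly(A) selection, and 1 WT and 1 Null small RNA library. The submitters' processing notes name the build mm9 and, with no role, the tools BWA, CASAVA, DESeq, edgeR and TopHat. The annotation and filters were not given in the sources used here. For mRNA the authors deposited FPKM with 1 column per genotype, so the 3 libraries of a genotype had been combined, in a way the sources do not state. The WT column adds up to 508701 and the Null column to 590327 FPKM. Some of the 5796 WT and 6016 Null entries listed at 0 may be failed estimates. The microRNA values, headed RPM per the file headers, add up to 1559381 and 1578515, more than the name RPM allows, and the deposited values were treated as a scaled signal. The authors' deposited p-values and ratio per microRNA were not used.

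From these, log2((Null + 1)/(WT + 1)) was computed for genes averaging 1 FPKM or more and counted at 2-fold (Python 3.11.15, pandas 2.3.3, numpy 2.4.6). The arithmetic was tested on simulated columns, in which WT values of well expressed genes were multiplied by known factors. No noise was added, so this says nothing about spread between mice or about low genes. No test between genotypes is possible with 1 value each. The members and lists were chosen with earlier results of these data known. All 122 list entries were found in the table, 7 under an older symbol given by RefSeq. The rule for naming genes took all 9 members, then from each pathway list every gene past 2-fold, the 2 highest, the 2 lowest and the most abundant. It also took the neighbours of Deptor in the order of ratios and the 5 genes most like it. Other genes named from the lists (Nprl2, Nprl3, Akt1, Akt2, and the Lamtor, AMPK, Eif4ebp and S6 kinase genes) belong to a complex or family and were added after their values were seen. The alternatives were pseudocounts of 0.1 and 0, scaling to the same sum, centring on the median, quantile normalization, a mean of at least 5 FPKM or no filter, leaving out small RNA genes and genes listed at 0, and 1.5-fold, which was combined with the pseudocounts, scalings and centring after seeing the data.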

Additional observations from a re-analysis of the deposited data

How the results depend on the processing

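No paired analysis was possible because the mRNA table holds 1 combined column per genotype, and for the same reason no replicate could be left out. A centring on genes of similar protein length was not run, since no protein lengths were used here. The Deptor ratio stayed past 2-fold under every setting tried, and the median of the other 8 genes ranged from -0.58 to -0.35. At 1.5-fold, 2 of the 9 genes were lower in place of 1. Counts became 2 lower for amino acid sensing, 4 lower for the list holding the mTORC1 targets, and 1 lower and 1 higher for upstream kinases. The amino acid sensing list had 1 gene lower by 2-fold with a pseudocount of 0.1 FPKM, with no pseudocount and with the columns scaled to the same sum. Its median of 0.02 was -0.18 with that scaling and -0.021 with quantile normalization. The share of all genes lower by 2-fold or more was 2.56% with a pseudocount of 0.1 FPKM, 2.82% with the columns scaled to the same sum, 0.860% with no filter and, at 1.5-fold, 6.75%. In that scaling 1.27% were higher, against 2.17% as reported. Deptor was number 66 from the lowest with a pseudocount of 0.1 FPKM. It was number 21 with no pseudocount, and number 3 without small RNA genes and genes listed at 0, settings that leave out genes at 0 in a pool and so remove the lowest ratios by construction. With either other pseudocount 2 partners were lower by 1.5-fold or more. Of all genes, 9.15% were with a pseudocount of 0.1 FPKM and 9.24% with none. The miR-365-3p log2 ratio was -0.85, and -1.03 relative to the median of all microRNAs.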
